A study of Mus musculus with 5 samples.

Results

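The GATA factors are zinc finger transcription factors that bind the WGATAR motif, and the Friend of GATA (FOG) proteins are cofactors that bind the amino-terminal zinc finger of a GATA factor. The genes described here are *Gata2*, *Gata3*, *Gata4*, *Gata5* and *Gata6* with the FOG genes *Zfpm1* (FOG1) and *Zfpm2* (FOG2). They were chosen by name, and they are 7 of the 24297 genes that have a transcript with a RefSeq link in the reference. All 7 were found in at least 1 of the 5 libraries, among 13489 genes found in all.

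Tag-seq libraries were made from regions of the mouse heart at E10.5 (Theiler stage 17) to find genes of the developing valves and genes that change with loss of *Twist1*. The atrioventricular canal (AVC), outflow tract (OFT), atria and ventricles came from wild-type C57BL/6 embryos, given in the methods as from C57BL/6J females. A further AVC library came from *Twist1* knockout embryos of the ICR strain, called the *Twist1* null AVC. Each group has 1 library, made from the pooled tissue of at least 3 litters per the labels, and the methods describe a smaller pool for the null. Strain and genotype differ together between the null and the wild-type AVC, so their effects cannot be told apart. The *Twist1* null AVC library was the deepest with 12977237 tags, followed by the AVC with 6075421, the OFT with 5267618, the atria with 4666514 and the ventricles with 4223810. Levels are given in tags per 1000000 of these totals (TPM). The 95% intervals are exact Clopper-Pearson intervals that cover counting error only, since PCR copies of a molecule are not separate molecules. With 1 library a group, every p-value below compares those libraries, not the conditions.

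GATA4, GATA5 and GATA6 are the GATA factors of heart muscle, endocardium and endoderm, and they act with partners such as NKX2-5, TBX5 and MEF2 factors on genes of the cardiac sarcomere and on natriuretic peptide genes. GATA1, GATA2 and GATA3 are best known from blood cell development, and GATA2 also acts in endothelial cells and GATA3 in sympathetic neurons and T cells. FOG1 works with GATA1 in red cells and megakaryocytes, while FOG2 binds GATA4 and is needed for coronary vessel and septal development. FOG proteins can activate or repress, and repression goes through the NuRD complex and CtBP.

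In Tag-seq the cDNA is cut at CATG by NlaIII and the 17 bases after the site are read, so a gene is seen through short tags, each at a fixed place in its transcript. The tag type with the most tags over the 5 libraries is shown for 6 of the genes. It held less than all other tag types together for *Gata3* and *Zfpm2* in the null, and the *Gata3* tags of the ventricles were all of another tag type. They were taken from the deposited lists and placed on GRCm38 through GENCODE M21 transcripts. Capitals mark the NlaIII site.
Gata4-s1, chr14:63198997-63199017, minus strand: CATGcctgcccctcctccaca
Gata5-s3, chr2:180326657-180326677, minus strand: CATGgacctctctgcagccaa
Gata2-s1, chr6:88205948-88205968, plus strand: CATGgaggcgtgtgctatttg
Gata3-s4, chr2:9857983-9858003, minus strand: CATGaaggacgccaagagttt
Zfpm1-s1, chr8:122336776-122336796, plus strand: CATGccccgccgcgcctttgc
Zfpm2-s1, chr15:41104556-41104576, plus strand: CATGgatggaataaaattcca
Tag types are numbered from the 3′ end of the transcript. Zfpm1-s1 lies in coding sequence and the other 5 lie in the 3′ UTR. Zfpm1-s1 has 14 G or C bases among its 17 and Zfpm2-s1 has 5. The main tag type of *Gata6* lies in the 3′ UTR 522 bases from the transcript end and has 2 G or C bases.

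Before the levels, the labels were checked. *Twist1* had a level of 4.55 TPM in the *Twist1* null AVC against 918 in the wild-type AVC, 299 for the OFT, 63.4 for the atria and 55.9 for the ventricles. Its remaining 59 tags in the null were all of 1 tag type in the 3′ UTR, and whether that stretch is left in the null allele was not tested. All 11 cardiomyocyte markers were listed in every library, and their summed level was 25301 TPM for the AVC, 27512 for the OFT, 24383 for the ventricles, 21801 for the null and 8828 for the atria. Their most abundant gene in each was *Actc1*, which made up 5782 TPM of the sum in the atria and 13856 in the ventricles, while *Myh7* was at 5.79 TPM and *Nppa* at 18.2 in the atria. *Nkx2-5*, a defining transcription factor of heart muscle, was not listed in the atria or the ventricles, and *Emcn*, an endocardial marker, was not listed in the AVC. Haemoglobin genes took 21.5% of atria tags, 4.67% of ventricle tags and 2.73% of null tags, against 0.242% for the AVC and 0.307% for the OFT. Tags that begin with T after the site made up 34.9% of the atria, 24.6% of the ventricles, 34.6% of the null, 15.4% of the AVC and 16.4% of the OFT. The chamber libraries and the null therefore stood apart from the AVC and the OFT in blood content and in tag composition.

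*Gata4*, *Gata5* and *Gata6* were high in the AVC and the OFT and low in the atria and ventricles. *Gata4* had 227 TPM in the AVC (95% interval 215 to 240), 123 in the OFT (113 to 132), 9.43 in the atria (6.85 to 12.7), 5.45 in the ventricles (3.45 to 8.17) and 118 in the *Twist1* null AVC (112 to 124). Its order was AVC, then OFT and null with overlapping intervals, then atria and ventricles with overlapping intervals. *Gata5* had 78.2 TPM in the AVC (71.3 to 85.5), 66.4 in the OFT (59.7 to 73.8), 38.9 in the null (35.6 to 42.5), 5.36 in the atria (3.47 to 7.91) and 3.79 in the ventricles (2.17 to 6.15). The intervals of AVC and OFT overlapped, as did those of the chambers. *Gata6* had 102 TPM in the AVC (94.3 to 111), 102 in the OFT (93.1 to 111), 45.6 in the null (42.0 to 49.4), 20.6 in the ventricles (16.5 to 25.4) and 6.64 in the atria (4.51 to 9.43). For *Gata6* the AVC and OFT could not be separated, and the ventricles stood above the atria beyond counting error.

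*Gata2* and *Gata3* were highest in the OFT, and in the chambers *Gata2* was not listed and *Gata3* had 7 tags. *Gata2* had 39.7 TPM in the OFT (34.5 to 45.4), 15.8 in the null (13.7 to 18.1) and 14.2 in the AVC (11.3 to 17.5). It was not listed in the atria or ventricles, where a tag type with 5 tags or fewer is dropped, which is 1.07 TPM for the atria and 1.18 for the ventricles. *Gata3* had 99.1 TPM in the OFT (90.8 to 108), 40.2 in the AVC (35.3 to 45.5), 22.3 in the null (19.8 to 25.1) and 1.66 in the ventricles (0.666 to 3.41), and was not listed in the atria. The 3 cushion-bearing libraries differed from each other in *Gata3* beyond counting error, while AVC and null overlapped in *Gata2*.

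The FOG genes had unlike patterns. *Zfpm1* had 23.4 TPM in the OFT (19.4 to 27.9), 19.1 in the AVC (15.8 to 22.9), 11.2 in the null (9.43 to 13.1) and 1.50 in the atria (0.603 to 3.09), and was not listed in the ventricles. *Zfpm2* had 31.7 TPM in the null (28.7 to 34.9), 9.38 in the AVC (7.11 to 12.2), 8.29 in the ventricles (5.77 to 11.5), 3.42 in the OFT (2.03 to 5.40) and 1.93 in the atria (0.882 to 3.66). *Zfpm2* was the member whose highest library was the null, and its AVC and ventricle intervals overlapped.

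**Figure D1:**
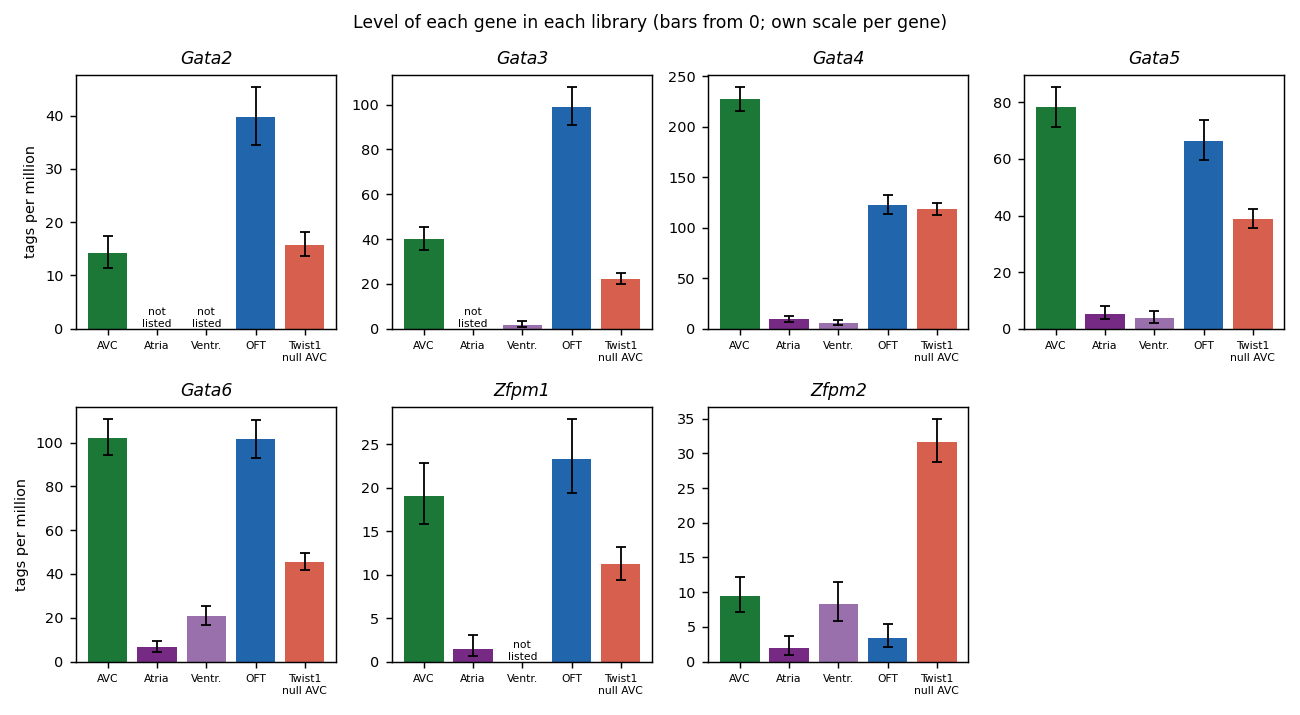
Level of each of the 7 genes in TPM (vertical axis, own scale per gene) in the 5 libraries, as bars with exact 95% counting intervals. *Gata4* falls from 227 in the AVC to 5.45 in the ventricles, *Gata2* and *Gata3* peak in the OFT at 39.7 and 99.1, and *Zfpm2* peaks in the *Twist1* null AVC at 31.7.

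To ask which genes mark the valve-forming regions, each of AVC and OFT was set against the summed atria and ventricles. Of the 7 genes 6 were called higher in the AVC, by an unadjusted two-sided exact p under 0.05 at the dispersion of the study's methods, where 43.4% of the 12506 genes tested were called higher and 8.12% lower. In the OFT the same 6 were called higher, where 40.6% of 12453 genes were called higher and 8.88% lower. These comparisons share the chamber libraries, so they are not independent. The gene not called in either was *Zfpm2*. The 6 were called as well against the atria alone, against the ventricles alone, and with haemoglobin tags left out of the totals. Counted by its 3′-most site alone, *Gata5* was not called in the AVC (log2 ratio 0.62, exact p = 0.552). It was called lower in the OFT, where that site had no listed tag. Against the atria alone *Zfpm2* was also called higher in the AVC (log2 ratio 2.27, exact p = 0.0150).

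*Gata4* stood at 7.54 TPM in the summed chambers, 30.2-fold below the AVC (counting interval 23.6 to 39.1, exact p = 1.02e-08) and 16.3-fold below the OFT (12.6 to 21.3, exact p = 1.14e-06). *Gata5* was 17.0-fold higher in the AVC (12.3 to 23.9, exact p = 1.01e-06) and 14.4-fold higher in the OFT (10.4 to 20.4, exact p = 3.75e-06). *Gata6* was 7.70-fold higher in the AVC (6.32 to 9.46, exact p = 1.71e-04) and 7.65-fold higher in the OFT (6.26 to 9.42, exact p = 1.79e-04). Of the cardiac factors *Gata6* had the smallest ratio and *Gata4* the largest in both comparisons, but this order did not hold after a correction for the GC content of the tags, described further on. The corrected log2 ratios in the AVC were 3.52 for *Gata4*, 3.06 for *Gata6* and 2.82 for *Gata5*, and in the OFT they were 2.90 for *Gata6*, 2.68 for *Gata5* and 2.67 for *Gata4*.

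*Gata3* rested on 7 chamber tags, all in the ventricles, and was 51.0-fold higher in the AVC (24.4 to 128, exact p = 3.76e-09) and 126-fold higher in the OFT (60.7 to 315, exact p = 4.97e-12). *Gata2*, absent from both chamber files, was higher by at least 6.29-fold in AVC and by at least 8.82-fold in OFT, with 5 tags put in for each missing tag type in each chamber library. The exact p on the listed tags was 1.12e-08 and 6.33e-12, and with those 5 tags put in for every missing tag type it was 0.00160 and 1.09e-04. *Zfpm1* was 24.2-fold higher in the AVC (11.4 to 61.7, exact p = 1.00e-06) and 29.7-fold higher in the OFT (14.0 to 75.3, exact p = 3.96e-07), over 7 chamber tags, all in the atria. The ratios of *Gata3* and *Zfpm1*, like those of *Gata4*, *Gata5* and *Gata6* above, count listed tags only. For *Gata4* the log2 ratio in the AVC went from 4.91 to 4.24 with 5 tags for each missing tag type (exact p = 3.02e-07). With 5 tags put in for each missing tag type in every library, the log2 ratio of *Gata3* went from 5.67 to 2.92 in the AVC (exact p = 2.54e-04) and from 6.98 to 4.22 in the OFT (exact p = 5.30e-07). That of *Zfpm1* went from 4.60 to 2.65 in the AVC (exact p = 0.00126) and from 4.89 to 2.94 in the OFT (exact p = 3.57e-04), so both were called but with much smaller ratios. *Zfpm2* had a ratio of 1.90 in the AVC (1.26 to 2.88, exact p = 0.245) and 0.690 in the OFT (0.375 to 1.22, exact p = 0.581).

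The chambers were low for many genes. Over all genes tested, with absent genes at their bound, the AVC had a median log2 ratio of 0.93 and the OFT one of 0.82. TMM scaling, which centres the bulk of the genes, moved the AVC to chamber scale by 0.95 and the OFT to chamber scale by 0.86 downwards in log2 units, and fitted ratios that rest on few chamber tags moved by other amounts. It left 3208 genes higher and 2194 lower in the AVC, where the deposited totals gave 5429 and 1015. In the OFT it left 3258 higher and 2200 lower in place of 5057 and 1106. Under TMM the 6 genes were still called in both comparisons, against 25.7% of genes called higher in the AVC and 26.2% in the OFT. *Gata4* then had a log2 ratio of 3.96 in the AVC (exact p = 1.37e-06) and *Gata6* one of 1.99 (exact p = 0.00863), while *Zfpm2* in the AVC turned to -0.03 (exact p = 1). A bulk library cannot tell fewer cells of a type from less RNA per cell, and this holds for each comparison here.

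**Figure D2:**
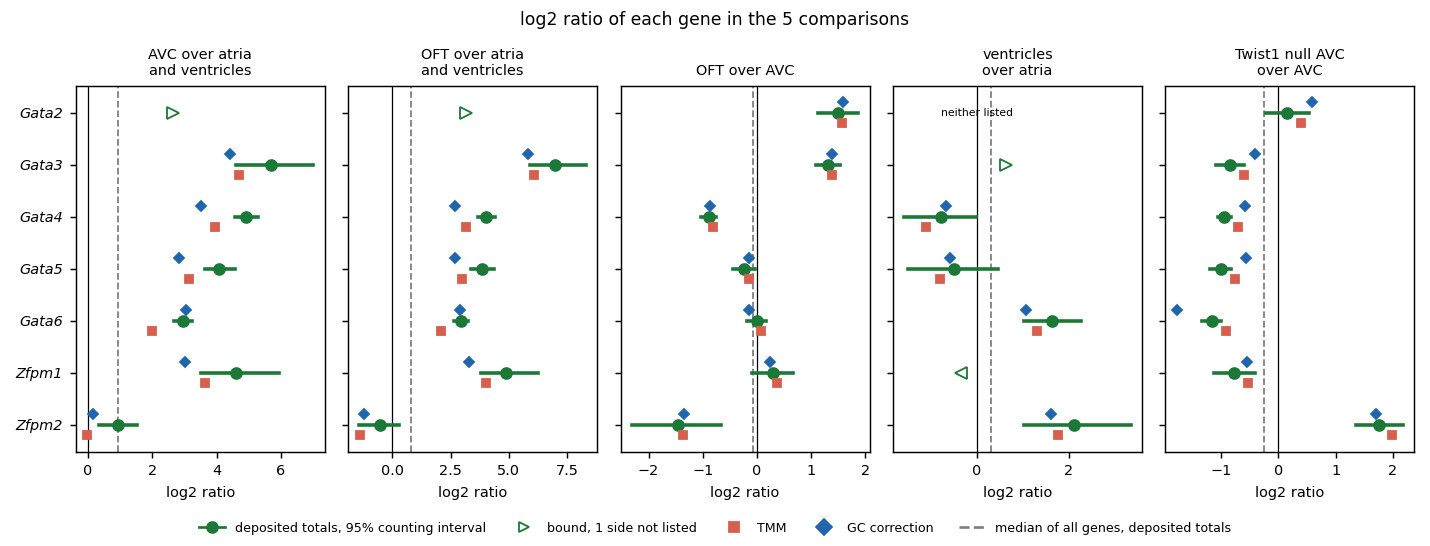
The log2 ratio (horizontal axis) of each gene in the 5 comparisons, with circles and 95% counting intervals from the deposited totals, squares from TMM scaling, diamonds after correction for tag GC content, and open triangles for bounds. Dashed lines mark the median of all genes, 0.93 for the AVC over the chambers. Circles of 5 genes and the triangle of *Gata2* lie to the right of that line in the first 2 panels, and *Zfpm2* does not.

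The AVC and OFT were then compared directly. None of the 7 genes was called by the edgeR exact test, where 5.22% of 12544 genes were called higher in the OFT and 7.36% lower. The unadjusted exact p was over 0.05 for all 7, and the DESeq2 size factors called 1 of them, *Gata2*. *Gata2* was 2.80-fold higher in the OFT (2.17 to 3.65, exact p = 0.0509), and under TMM scaling it crossed the threshold (log2 ratio 1.57, exact p = 0.0399). *Gata3* was 2.47-fold higher in the OFT (2.12 to 2.88, exact p = 0.0784). *Zfpm2* was 2.75-fold higher in the AVC (exact p = 0.0818) and *Gata4* was 1.85-fold higher in the AVC (exact p = 0.221). These counting intervals excluded equal levels, but the spread assumed between libraries was wider than the counting error. The ratios of *Gata5*, *Gata6* and *Zfpm1* were 0.850 (0.738 to 0.978), 0.994 (0.883 to 1.12) and 1.22 (0.941 to 1.59).

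Between the chambers, *Gata6* and *Zfpm2* were called higher in the ventricles, where 11.1% of 10707 genes were called higher and 9.04% lower. *Gata6* was 3.10-fold higher (2.04 to 4.84, exact p = 0.0412) on 87 against 31 tags. *Zfpm2* was 4.30-fold higher (2.02 to 10.2, exact p = 0.0200) on 35 against 9 tags. Neither call held under TMM scaling, which centres a median that sat 0.31 above 0, with exact p = 0.102 and 0.0654. *Gata3* and *Zfpm1* were also called, in opposite directions, but each on 7 tags in 1 library and none listed in the other. With 5 tags for the missing tag type their exact p was 0.829. *Gata4* had 23 tags in the ventricles and 44 in the atria (ratio 0.578, 0.333 to 0.977, exact p = 0.348), and *Gata5* had 16 and 25 (exact p = 0.619). *Gata2* could not be compared.

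In the *Twist1* null AVC, *Zfpm2* was the 1 gene of the 7 that was called, 3.38-fold higher than in the wild-type AVC (2.55 to 4.54, exact p = 0.0219), where 11.9% of 12966 genes were called higher and 12.7% lower. The adjusted exact p by Benjamini-Hochberg was 0.126. *Gata4* was 1.92-fold lower (exact p = 0.194), *Gata5* 2.01-fold lower (exact p = 0.169) and *Gata6* 2.24-fold lower (exact p = 0.113). *Gata3* was 1.80-fold lower (exact p = 0.252), *Zfpm1* 1.71-fold lower (exact p = 0.307), and *Gata2* had a ratio of 1.12 (0.863 to 1.45, exact p = 0.849). The median log2 ratio of all genes was -0.25 in this comparison, so part of the distance of these 5 genes below 0 was shared with the whole table. Under TMM scaling their log2 ratios lay between -0.93 for *Gata6* and -0.53 for *Zfpm1*, and *Zfpm2* stood at 1.99 (exact p = 0.00954).

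A gene with several NlaIII sites gives several tag types, and within some of the genes these did not move together. The tag types that carry this are shown, with the NlaIII site in capitals.
Gata5-s1, chr2:180325294-180325314, minus strand: CATGaagacataagatccctt
Gata4-s5, chr14:63200378-63200398, minus strand: CATGgggacataatcaccgcg
Zfpm2-s2, chr15:41104550-41104570, plus strand: CATGtacatggatggaataaa
Zfpm2-s3, chr15:41104201-41104221, plus strand: CATGtatgttaagtgaagatg
Gata5-s1 lies 182 bases from the transcript end and Gata5-s3, shown above, 1545 bases from it, both in the 3′ UTR. Gata5-s3 had 441 tags in the AVC, 13 in the atria, 9 in the ventricles, 336 in the OFT and 289 in the null. Gata5-s1 had 20, 12, 7, 0 and 196 tags in the same order. Gata5-s3 was thus 29.3-fold higher in the AVC than in the chambers and Gata5-s1 was 1.54-fold higher. In the null Gata5-s3 had a ratio of 0.307 to the wild-type AVC and Gata5-s1 one of 4.59, in opposite directions. The 3′-most site held 4.21% of *Gata5* tags in the wild-type AVC and 38.8% in the null, and it held 48.0% in the atria, 43.8% in the ventricles and no listed tag in the OFT. By that site alone *Gata5* was called in the opposite direction in the OFT over the chambers (exact p = 0.00202) and in the null (log2 ratio 2.19, exact p = 0.00707). The OFT call set no listed tag against 19 chamber tags. With 5 tags put in for the OFT the ratio was at most 0.444. The results for *Gata5* therefore depended on the tag type used.

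Gata4-s5 lies in coding sequence, 1477 bases from the transcript end. It had 12 tags in the AVC, none listed in the atria, ventricles or OFT, and 308 in the null, a 12.0-fold ratio of null to AVC. Gata4-s1, 96 bases from the end, had 1105, 44, 23, 568 and 1025 tags, a ratio of 0.434. Gata4-s5 made up 0.869% of *Gata4* tags in the AVC and 20.1% in the null. In *Gata4* it was the more 5′ tag type that was higher in the null, and in *Gata5* the 3′-most one. The AVC over chamber ratio of *Gata4* rested on Gata4-s1, with 24.1-fold, and on Gata4-s2, which had 212 tags in the AVC and none listed in the chambers.

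Zfpm2-s1 and Zfpm2-s2 lie 37 and 43 bases from the transcript end, and the sequence of Zfpm2-s2 runs through the site of Zfpm2-s1. Zfpm2-s1 had 44 tags in the AVC, 9 in the atria, 35 in the ventricles, 18 in the OFT and 195 in the null, a 2.07-fold ratio of null to AVC. Zfpm2-s2 was listed in the null alone, with 103 tags, and Zfpm2-s3 had 6 tags in the AVC, none in the 3 other wild-type libraries and 98 in the null. The higher *Zfpm2* in the null came from all 3, but the call did not hold on Zfpm2-s1 alone (log2 ratio 1.05, exact p = 0.174). Both Zfpm2-s2 and Zfpm2-s3 begin with T. Over 5527 tag types that begin with T the median log2 ratio of null to AVC was 1.08, and it was -0.54 over 5062 that begin with G, as Zfpm2-s1 does. Without the tags that begin with T, a setting added after seeing the data, *Zfpm2* had a log2 ratio of 1.40 (exact p = 0.0687). Zfpm2-s1 was higher in the null where tags of its first base were lower in the median.

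**Figure D3:**
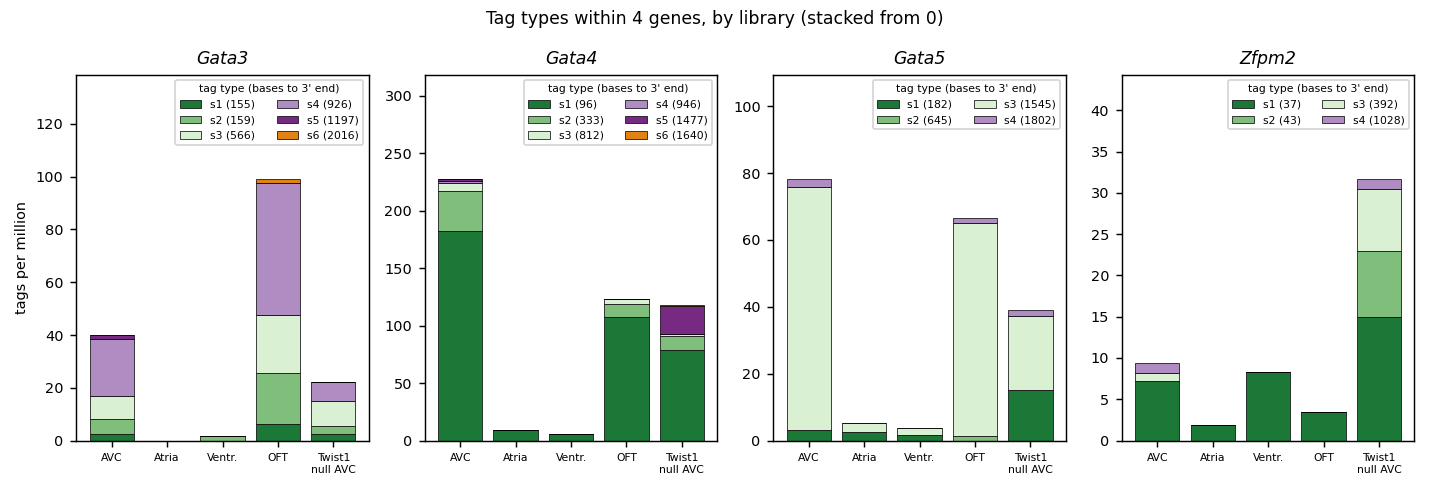
TPM (vertical axis, stacked from 0) of the tag types of *Gata3*, *Gata4*, *Gata5* and *Zfpm2* in the 5 libraries, with each tag type's distance to the transcript end in the legend. In the *Twist1* null AVC a larger part of *Gata4* comes from s5 (20.1%), of *Gata5* from s1 (38.8%) and of *Zfpm2* from s2 (25.1%) than in the wild-type AVC.

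The *Gata3* tags fell into 6 tag types, as did those of *Gata4*. Gata3-s4 held 54.1% of AVC tags, 50.4% of OFT tags and 32.8% of null tags, and the 3′-most tag type 5.74, 6.51 and 11.7%. Each of the 4 *Gata3* tag types found in both AVC and OFT was higher in the OFT, with ratios of 2.30 for s4, 2.55 for s3, 2.80 for s1 and 3.30 for s2. In the null s4 had a ratio of 0.337 to the AVC and s3 one of 1.10. *Gata2* was carried by Gata2-s1, which held 91.9% of AVC tags, 74.6% of OFT tags and 72.2% of null tags. In the null over the AVC Gata2-s1 had a ratio of 0.877 and Gata2-s2, on 57 against 7 tags, one of 3.81. *Gata6* was carried by its main tag type, which held 90.2% of AVC tags, 94.4% of OFT tags, 91.9% of null tags and all chamber tags.

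The ratios of tag types varied with their base composition, so the tags of the 7 genes were set beside others of the same composition. Over 13090 tag types with at least 50 tags on 1 side, the median log2 ratio of AVC to chambers rose from -0.21 at 2 G or C bases to 1.29 at 12 (Spearman rho 0.208 across tag types, which are not replicates). Gata4-s1, with 12 such bases, had 4.59 where the median was 1.29. Gata5-s3, with 10, had 4.87 where it was 1.38. Gata5-s1, with 6, had 0.62 where it was 1.12, and Zfpm2-s1, with 5, had 0.55 where it was 0.84. The main tag type of *Gata6* had 2.80 where the median of its composition was -0.21, so after correction for GC content *Gata6* kept a log2 ratio of 3.06 in the AVC, while *Gata4* went from 4.91 to 3.52 and *Zfpm1* from 4.60 to 3.03. This correction also centres the whole table, and TMM scaling alone took *Gata4* to 3.96, *Zfpm1* to 3.63 and *Gata6* to 1.99, so the 2 steps are not separated in these values. The 6 calls in the AVC and the 6 in the OFT were kept under this correction. Among all genes tested, the corrected ratios gave 3448 higher calls out of 12506 for the AVC, while the OFT had 3375 out of 12453.

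In the null over the AVC the trend ran the other way (rho -0.149 over 18451 tag types), with a median of 0.73 at 2 G or C bases. The main *Gata6* tag type had -1.14 there. With the GC correction *Gata6* had a log2 ratio of -1.78 and was called lower in the null by edgeR's likelihood ratio test, and *Zfpm2* stood at 1.70 and was still called. In the ventricles over the atria (rho -0.317 over 7863 tag types) the correction took *Gata6* to 1.07 and *Zfpm2* to 1.62, and neither was called. Neither was called under TMM scaling alone either, at 1.31 and 1.77. The direction of *Gata6* and *Zfpm2* was the same before and after it.

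**Figure D4:**
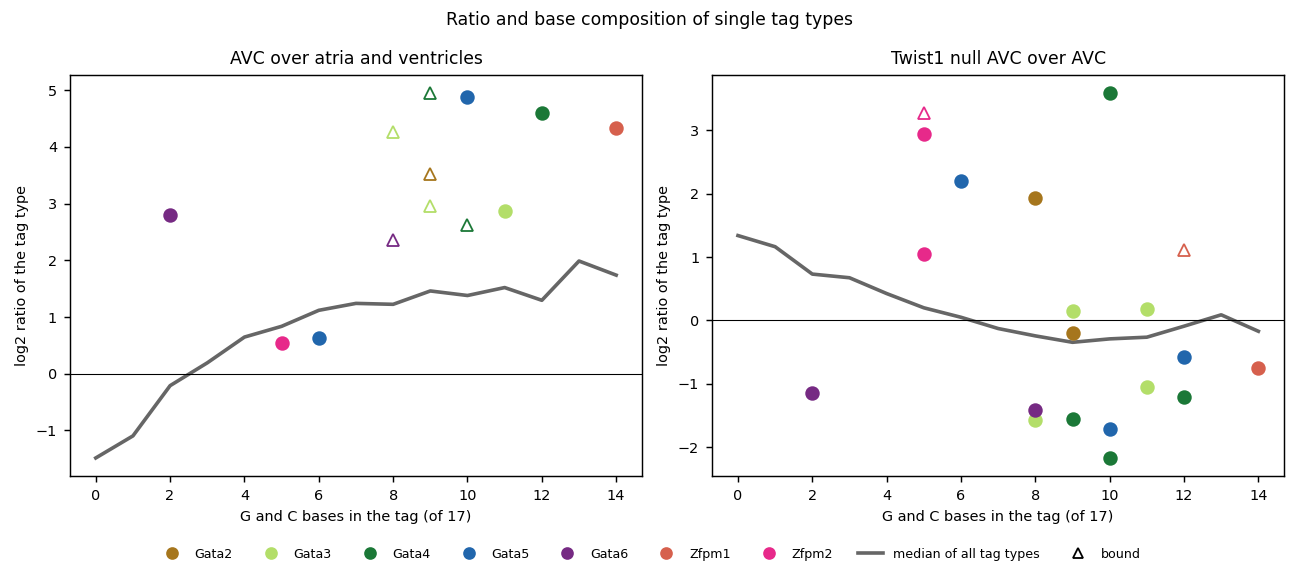
The log2 ratio of single tag types of the 7 genes (vertical axis) against the number of G and C bases among the 17 (horizontal axis), for AVC over the chambers and *Twist1* null AVC over AVC; tag types with at least 20 tags on 1 side are plotted, open triangles are bounds, and the line is the median of all tag types. *Gata6* at 2 bases lies at 2.80 against a median of -0.21 in the first panel and at -1.14 against 0.73 in the second.

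Genes that work with these factors were described by lists, each beside all genes tested. Of 18 cardiac partners of GATA4 to GATA6, 14 were called higher in the AVC over the chambers and none lower (77.8%, against 43.4% of all genes), with a median log2 ratio of 2.58 against 0.93. In the OFT 14 were higher and 1 lower (40.6% of all genes were higher and 8.88% lower), with a median of 2.76 against 0.82. Under TMM scaling 10 partners were higher and 1 lower in the AVC, where 25.7% of all genes were higher and 2194 of 12506 lower. For the OFT 13 partners were higher and 3 lower, where 26.2% of all genes were higher and 2200 of 12453 lower. *Mef2d*, a MADS box factor, was 31.7-fold higher in the AVC (exact p = 2.03e-08), and *Ldb1*, a LIM domain-binding adaptor, 16.4-fold (exact p = 4.28e-06). *Nkx2-5* and *Tbx2*, a repressor of chamber genes in the AVC, were not listed in the chambers and were at least 6.37-fold and 5.95-fold higher in the AVC. In the OFT *Isl1*, a factor of the second heart field, was 92.6-fold higher, while *Nr2f2*, a nuclear receptor of atrial identity, was the gene that was lower, at 5.89 against 123 TPM (exact p = 2.48e-07).

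Between the OFT and the AVC 1 of 18 partners was higher and 2 were lower, close to the 5.22 and 7.36% of all genes. *Isl1* was the higher one, at 72.9 against 2.30 TPM (exact p = 3.71e-08). *Tbx5* (5.13 against 61.1 TPM, exact p = 1.70e-05) and *Nr2f2* (5.89 against 62.5 TPM, exact p = 3.19e-05) were lower. In the null *Nkx2-5* was called, 3.91-fold higher (exact p = 0.00969), 1 of 18 partners (5.56%, against 11.9% of all genes), while the median of the list was 0.15 against -0.25 over all genes. In the ventricles *Hand1*, a basic helix-loop-helix factor of the left ventricle, was at least 10.5-fold higher than in the atria, where it was not listed. It was the 1 of 16 partners called higher there (11.1% of all genes), and 3 were lower (9.04% of all genes). These were *Nr2f2*, with 206 tags against 887, and *Isl1* and *Nfatc4*, each with 7 tags in the atria and none listed in the ventricles.

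Of 15 cardiac target genes of GATA4, 8 were called higher and 1 lower in the AVC over the chambers (53.3%, against 43.4% of all genes), and 7 were higher and 1 lower in the OFT (46.7%, against 40.6%). The median log2 ratio of the list was 2.70 in the AVC against 0.93 for all genes, but 0.40 in the OFT against 0.82. Under TMM scaling 8 were higher in the AVC (25.7% of all genes) and 7 in the OFT (26.2%), and 3 were lower in each. That scaling left 2194 of 12506 genes lower for the AVC, and for the OFT 2200 of 12453. Of the 15, 6 are also among the 11 cardiomyocyte markers, of which the AVC had 7 called higher (63.6%) and 1 lower, and the OFT 6 called higher (54.5%) and none lower. The part of muscle cell content in the levels of the targets was not tested. *Myh6*, the alpha myosin heavy chain, was 15.8-fold higher in the AVC (exact p = 8.27e-07), *Nppa*, atrial natriuretic peptide, 13.3-fold (exact p = 3.42e-06) and *Tnnt2*, cardiac troponin T, 12.5-fold (exact p = 4.74e-06). *Myh7*, the beta myosin heavy chain, was higher in the OFT by 28.0-fold (exact p = 1.09e-08). Between the chambers 5 of the 15 were higher in the ventricles (33.3%, against 11.1%), among them *Myh7* with 33.0-fold and *Nppb*, brain natriuretic peptide, with 4.31-fold (exact p = 0.00478). In the null 2 of the 15 were higher and 3 lower, where 11.9% of all genes were higher and 12.7% lower. *Myh6* fell from 2696 to 290 TPM (exact p = 3.73e-05), *Nppb* from 255 to 30.7 (exact p = 8.94e-05) and *Chrm2*, a muscarinic receptor, from 6.25 to 1.08 (exact p = 0.00482), while *Bmp4*, a signalling ligand, rose from 9.05 to 27.3 (exact p = 0.0374).

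FOG proteins bind corepressors of the NuRD complex and CtBP. Of 13 subunits of NuRD and CtBP genes, 9 were called higher in the AVC over the chambers and none lower (69.2%, against 43.4%), with a median log2 ratio of 2.56, and 9 were higher and none lower in the OFT (69.2%, against 40.6%), with a median of 2.32 against 0.82. Under TMM scaling 7 were higher and none lower in the AVC (25.7% of all genes were higher and 2194 of 12506 lower). In the OFT 7 were higher and 1 lower (26.2% of all genes were higher and 2200 of 12453 lower). *Chd4*, the helicase of NuRD, was 14.0-fold higher in the AVC (exact p = 2.46e-06), and 22.8-fold in the OFT (exact p = 6.86e-08). *Hdac1*, *Mbd3* and *Ctbp2* were not listed in either chamber library, and *Hdac1* had 57.4 TPM in the AVC. In the null *Ctbp1* was higher, at 251 against 63.9 TPM (exact p = 0.00825), and *Rbbp7* and *Mbd2* were lower, by 3.41-fold (exact p = 0.0167) and 2.87-fold (exact p = 0.0393). Under TMM scaling the call of *Mbd2* did not hold (exact p = 0.0807) and *Chd4* was called higher (exact p = 0.0299, against 0.0630 with deposited totals). This made 2 of the 13 higher and 1 lower, where 1926 of 12966 genes were higher and 1215 lower. With deposited totals 1 was higher and 2 lower, where 11.9% of all genes were higher and 12.7% lower.

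Of the other GATA-type zinc finger genes 5 could be tested, and 2 were called higher and 1 lower in the AVC over the chambers and likewise in the OFT (40%, against 43.4 and 40.6% of all genes higher). The shares of all genes that were lower were 8.12 and 8.88%. *Gata1*, the red cell factor, had 12.2 TPM in the atria, 10.2 in the null, 4.74 in the ventricles and 0.988 in the AVC, and was not listed in the OFT. It was called lower in the AVC than in the chambers (exact p = 0.00120) and 10.3-fold higher in the null than in the AVC (exact p = 3.83e-04), on 132 against 6 tags. Of 12 erythroid genes of GATA1 and FOG1, 9 were lower in the AVC over the chambers (8.12% of all genes were lower), 12 in the OFT over the chambers (8.88% of all genes), and 7 were higher in the null (58.3%, against 11.9%). Their most abundant gene in the atria was *Hbb-y*, an embryonic beta globin, at 155319 TPM, and the part of blood in these results was not tested. *Zfpm1*, the partner of *Gata1* in red cells, was at 1.50 TPM in the atria, where the summed level of those 12 genes was highest. *Trps1*, a GATA-type repressor, was 4.52-fold higher in the AVC over the chambers (exact p = 0.00986), a call that did not hold under TMM scaling (log2 ratio 1.22, exact p = 0.145) or the GC correction (p = 0.104 by edgeR's likelihood ratio test). *Gatad2b*, a NuRD subunit, had 13 tags each in AVC and OFT and was not listed elsewhere. Its ratio to the chambers was at least 0.951 in the AVC, which does not show a higher level, and at least 2.19 in the OFT. In the null *Gatad2b* was called lower than in the AVC (ratio at most 0.360, exact p = 8.36e-04). It was the 1 lower of 5 tested there, where 12.7% of all genes were lower. *Zglp1* was not listed in any library. *Gatad1* was not called in the AVC, the OFT or the null. *Gatad2a* was called in the OFT over the chambers, 3.61-fold higher (exact p = 0.0134), but not under TMM scaling (exact p = 0.174), and it was not called in the AVC or in the null.

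Of 14 endothelial genes with GATA2 sites, 5 were called higher and 1 lower in the AVC over the chambers (35.7%, against 43.4% of all genes higher and 8.12% lower), and 5 were higher in the OFT (35.7%, against 40.6%). The lower gene in the AVC was *Emcn*, with no listed tag against 45 in the chambers (exact p = 1.16e-05). *Cdh5*, VE-cadherin, was 8.59-fold higher in the AVC (exact p = 8.72e-05), *Pecam1* 9.62-fold (exact p = 8.77e-05) and *Edn1*, endothelin 1, 12.4-fold (exact p = 1.57e-05). The median log2 ratio of the list was 0.43 in the AVC against 0.93 for all genes, and 0.94 in the OFT against 0.82. Under TMM scaling 4 of the 14 were higher and 3 lower in the AVC, where 25.7% of all genes were higher and 2194 of 12506 lower. In the OFT 3 were higher and 3 lower, where 26.2% of all genes were higher and 2200 of 12453 lower. In the null 1 of the 14 was higher (7.14%, against 11.9% of all genes) and 1 lower (12.7% of all genes were). The lower one was *Fli1*, an ETS factor (7.47 against 26.5 TPM, exact p = 0.0177). *Emcn* was the higher one, with 35 tags against none, by at least 1.09-fold.

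Markers of the cell types that the dissections could hold are given as levels. The 9 cushion mesenchyme markers summed to 3538 TPM in the OFT, to 2843 in the AVC, to 757 in the null, and to 208 in the atria and 201 in the ventricles. *Col3a1*, a fibrillar collagen, was the most abundant in all 4 wild-type libraries, and *Vcan* in the null. *Prrx1* was not listed in either chamber library, and *Snai2* was not listed in the atria. With deposited totals all 9 were called higher in both regions over the chambers (43.4 and 40.6% of all genes), and under TMM scaling 8 were for the AVC (25.7% of all genes) and 7 for the OFT (26.2%). In the null 5 of 9 were lower, where 12.7% of all genes were. The 10 endothelial and endocardial markers summed to 647 TPM in the null, 614 in the OFT and 577 in the AVC, and to 417 in the ventricles and 346 in the atria. The 6 epicardial markers summed to 219 TPM in the ventricles, 212 in the atria, 208 in the AVC, 189 in the null and 117 in the OFT, led by *Tbx18* except in the OFT, where *Krt19* led.

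Levels are also given for markers of cells that use *Gata3* or *Gata6* elsewhere in the embryo. Of 8 neural crest and sympathetic genes, *Hand2* was the most abundant in each library, with 665 TPM in the OFT, and it is also a gene of the heart itself. The summed list was 667 TPM in the OFT, 427 in the AVC, 236 in the null, 99.0 in the ventricles and 64.1 in the atria. *Foxd3*, a gene of early neural crest, was not listed in any library. The foregut and liver bud list summed to 39.0 TPM in the atria, where *Alb* led. It summed to 15.6 for the OFT, all of it *Sox17*, to 9.22 for the AVC and to 8.94 for the null. *Sox17* also led in the AVC at 4.77 TPM and in the null at 7.78. None of the 8 genes was listed in the ventricles. *Foxa1*, *Foxa2* and *Shh* of that list were not listed in any library. Macrophage and megakaryocyte genes summed to between 4.93 TPM in the null and 39.7 in the AVC, where *Pf4* led, and *Ptprc* was not listed outside the AVC. The 7 erythroid markers summed to 215340 TPM in the atria, 46711 in the ventricles, 27359 in the null, 3073 in the OFT and 2421 in the AVC. The part of these cells in the levels of the 7 genes was not tested.

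The profiles over the 5 libraries were also compared, as log2(TPM + 1) centred on each gene's mean. Among the 7 genes the closest pair was *Gata5* and *Zfpm1* (Euclidean distance 0.745), followed by *Gata4* and *Gata5* (1.02). *Zfpm2* lay 3.34 or more from each of the others. Over all genes with a mean of at least 5 TPM, the nearest profile to *Gata4* was that of *Serpine2* (0.440), which had 116 TPM in the AVC against 65.7 in the null and 62.6 in the OFT, followed by *Stat3* and *Tmem115*. The nearest to *Gata5* were *Wbp1l* (0.327), *Trappc10* and *Fbxw8*, and to *Gata6* *Ak3* (0.249), *Hltf* and *Acvr2b*, a receptor of activins. *Gata2* lay nearest to *Tbcc* (0.285), *Kif26a* and *Nop53*, and *Gata3* to *Ehbp1l1* (0.603), *Jph2* and *Mrpl4*. *Zfpm1* lay nearest to *Aldh1b1* (0.325), *Atp13a1* and *Nop2*. *Zfpm2* lay nearest to *Ncdn* (0.473), *Selenop* and *Mat2b*, of which *Selenop* had 159 TPM in the null, 66.0 in the AVC and 54.7 in the ventricles. These distances are over 5 libraries and are a description.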

How the data were processed

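Tag-seq was measured in 5 libraries, 1 per group, grouped by tissue and genotype as the labels give them. The authors deposited counts of each tag type, without normalization, after a read quality filter, and kept tag types with more than 5 tags. The smallest deposited count was 6. Bustard and ELAND were the base caller and read processor in the study's methods, and the gene mapping of the study is not in these counts. The labels name the build mm9, and coordinates here are GRCm38, from GENCODE M21.

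Tags were matched with Python 3.11.15, numpy 2.4.6 and pandas 2.3.3 to the sense strand of the 33363 transcripts with a RefSeq link, using all NlaIII sites and adding 20 adenines to each end. Tags of 1 gene were kept and summed. In the 5 libraries between 70.7 and 74.6% of tags matched 1 gene. A count of 6 is between 0.462 TPM in the null and 1.42 TPM in the ventricles, which sets the lowest level that can be seen. Comparisons used the exact test (edgeR 4.0.16, R 4.3.3; two-sided) at dispersion 0.12 with deposited totals as library sizes, and a gene was called at an unadjusted p under 0.05. A ratio against a missing gene is a bound with 5 tags per missing tag type and library. Intervals are from scipy 1.17.1, and figures from matplotlib 3.10.9. For the GC correction, a loess (span 0.5) of the log2 ratio on GC content gave each gene's offset in edgeR's likelihood ratio test. The exact test was also run on counts simulated at the same dispersion of 0.12. This cannot show whether that dispersion suits these libraries.

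Alternatives changed the scaling (TMM, DESeq2 1.42.0 size factors, totals without haemoglobin), dispersion (0.05, 0.4), adjustment of p, sites, limits on tags, depth, fill for missing tag types, transcripts, removal of likely read errors (1 base away from a tag with 100 times its count or more), GC content and chamber libraries. The members and lists were chosen with earlier results of these data known. Named genes are the 7 members with *Twist1*, those of smallest exact p in each list (up to 4 a comparison), every other GATA-type gene, the 3 nearest profiles of each member, and the most abundant and absent markers. The ChIP-seq data of the study were not analysed here.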

Additional observations from a re-analysis of the deposited data

Results flagged for a closer look

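Antisense tags lie outside the sense counts used above. Each value is from the library with the most, all above the 5 tags that a missing tag type allows. *Gata3* had 45.8 TPM of antisense tags in the OFT, which is 46.2 per 100 sense tags, where all genes together had 9.33. The AVC had 51.6 per 100 (all genes 8.64) and the null 43.1 (all genes 12.5). The main antisense tag type, chr2:9857229-9857249 on the plus strand, shares its NlaIII site with the 3′-most sense tag type of *Gata3*, and it is shown with the site in capitals.
Gata3-a1: CATGcatgttggtagctggta
Gata3-s1: CATGtcagagacccggccact
Gata3-a1 had 83 AVC tags, 163 OFT tags and 80 null tags and was not listed in the chambers, while Gata3-s1 had 14, 34 and 34. *Zfpm2* had 7.40 TPM of antisense tags in the null, and in the OFT as many antisense as sense tags, 18 of each. *Gata4* had 19.4 TPM in the AVC (8.54 per 100 sense tags), *Gata6* 8.23 TPM in the AVC (8.05 per 100) and *Gata5* 3.16 TPM in the null (8.12 per 100), each below the value of all genes in that library. In the OFT *Gata4* had 10.7 per 100, above the 9.33 of all genes. *Gata2* had 3.23 TPM in the OFT (8.13 per 100), and per 100 sense tags it had more in the AVC (18.6) and in the null (41 antisense against 205 sense tags), above the values of all genes there. *Zfpm1* had none listed.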

How the results depend on the processing

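No paired analysis was possible because each group has 1 library. Of 543 log2 ratios of the 7 genes under 17 other settings for the AVC and OFT over the chambers, 14 for the other comparisons and 1 added after seeing the data, 492 kept their direction and their side of the threshold, 23 lost a call, 15 gained one and 13 reversed. Deposited totals are the first value named, and the cause of each change was not tested.

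In the AVC over the chambers 6 genes were called in every alternative except the 3′-most site, which dropped *Gata5*, and against the atria alone *Zfpm2* made 7 (2.27, exact p = 0.0150). *Zfpm2* reversed to -0.030 with TMM scaling and -0.066 with DESeq2 size factors. In the OFT over the chambers *Gata5* reversed under the 3′-most site, which made 1 gene lower in place of 0. Its fitted log2 ratio was -6.93 with no listed OFT tag, and the bound with 5 tags was -1.17. *Zfpm2* was 0.82 against the atria alone.

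In the OFT over the AVC, where 0 genes were called, *Gata2* made 1 higher with TMM scaling, DESeq2 size factors, thinning, the GC correction and without tags that begin with T. At dispersion 0.05 there were 2 higher and 1 lower, where 1067 of 12544 genes were higher and 1507 lower. The 3′-most site gave 1 lower (*Gata5*, with no listed OFT tag), where 1067 of 11025 genes were lower. *Gata6*, at -0.0092, turned to 0.075 with TMM scaling, 0.074 with DESeq2 size factors, 0.057 at the 3′-most site, 0.026 for tag types with more than 10 tags, 0.053 after thinning and 0.017 with 5 tags for missing tag types.

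In the ventricles over the atria 3 genes were higher and 1 lower. Higher calls numbered 1 with TMM scaling, DESeq2 size factors, haemoglobin left out of the totals, at least 50 tags a gene or the GC correction, and 0 at dispersion 0.4 or with adjusted p. Lower calls numbered 0 at dispersion 0.4, with adjusted p, after thinning, at 50 tags or with 5 tags for missing tag types. For tag types with more than 10 tags the 1 lower was *Gata5* (fitted log2 ratio -7.58, no tag type of that size in the ventricles) in place of *Zfpm1*.

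In the null over the AVC *Zfpm2* was the 1 gene higher, and 0 were higher at dispersion 0.4, with adjusted p or without tags that begin with T. Under the 3′-most site *Gata5*, at 2.19, was higher in its place, and *Gata2* reversed to -0.19 and *Gata3* to 0.18. Lower calls went from 0 to 3 at dispersion 0.05 (*Gata4*, *Gata5*, *Gata6*) and to 1 with the GC correction (*Gata6*). Of all 12966 genes, 3007 were lower at dispersion 0.05 and 1337 with the GC correction.

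Over the whole table the number of genes called higher ranged from 2536 to 6659 in the AVC over the chambers, 2420 to 6208 in the OFT over the chambers, 114 to 1067 in the OFT over the AVC, 338 to 2118 between the chambers and 506 to 2443 in the null, and the number lower from 338 to 2241, 417 to 2426, 209 to 1507, 116 to 1291 and 307 to 3007. Of 31 levels 19 moved beyond their counting interval at the 3′-most site, 4 for tag types with more than 10 tags, and 0 with haemoglobin left out, likely read errors removed or all transcripts. With 1 library a group no spread between embryos is known, and a tag type of 5 tags or fewer cannot be told from none.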
